A study of Mus musculus with 8 samples.

Results

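The ATP-binding cassette (ABC) transporter genes were examined in 8 RNA-sequencing libraries of mouse bone marrow cells. A gene was counted as a member when its symbol was Abca, Abcb, Abcc, Abcd, Abce, Abcf or Abcg followed by a number and, in some cases, a letter, so that membership did not depend on expression. This rule gave 50 members among 20207 genes. Of these, 31 reached at least 0.5 RPKM (mapped reads normalised to transcript length and to library size) in a library. The member just inside this limit was Abcc10, with a highest value of 0.587 RPKM, and the member just outside was Abcc9, with 0.488 RPKM.

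ABC proteins bind and hydrolyse ATP, and most of them use this energy to move substrates across a membrane. Multidrug exporters of the family pump dyes and drugs out of cells, and efflux of the Hoechst dye through the Abcg2 protein is the basis of the side-population method of isolating haematopoietic stem cells (HSCs). Other members export cholesterol and phospholipids, carry fatty acids into peroxisomes, or act in mitochondria and lysosomes, and the E and F subfamilies are soluble proteins of ribosome recycling and translation that transport nothing. Several tyrosine kinase inhibitors used against chronic myelogenous leukaemia (CML) are substrates of drug-efflux members.

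The libraries came from long-term (LT) stem cells, short-term (ST) stem cells and KLS- progenitors, sorted from healthy and from CML-affected mice. KLS stands for cKit+ Lineage- Sca-1+ cells and KLS- for cKit+ Lineage- Sca-1- cells; LT cells were CD150+ CD48- CD135- KLS+ and ST cells were CD150- CD48- CD135- KLS+. CML-affected mice carried Tal1-tTA with TRE-BCR-ABL1, a BCR-ABL1 transgene under a tetracycline-responsive element, and healthy mice were described in the study's methods as littermates carrying Tal1-tTA alone. The transactivator was driven by a Tal1 regulatory element, so BCR-ABL1 was induced, on withdrawal of doxycycline, in cells in which that element is active. The labels name C57BL/6 for all libraries, whereas the methods give an FVB/N background for the transgenic mice. Labels of the healthy libraries also gave the age, which was 6 months for LT-HSC 2 and 2 months for the other healthy libraries. No age was given in the labels of the CML libraries, so age and disease cannot be told apart from the labels. The methods give the same age range, below 6 months, for sorted CML-affected and healthy mice, which the label of LT-HSC 2 does not match. Neither source gives healthy and CML libraries different strains, but which strain the libraries came from is not settled. LT-HSCs and LT-CML stem cells had 2 libraries each, and the ST-HSC, ST-CML, normal KLS- and CML-KLS- populations had 1 library each. The 2 LT-HSC libraries differed in age and so came from separate mice, whereas the labels do not say this of the 2 LT-CML libraries. How many mice each library came from is not given in the labels, so P-values measure the spread between these libraries.

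The estimated depth was 17.8 to 23.9 M reads per library. The sorting markers Kit and Ly6a (which encodes Sca-1) and Slamf1 (which encodes CD150) followed the sort between populations. Flt3 (which encodes CD135) did not, at 61.6 and 71.6 RPKM in the ST-HSC and ST-CML libraries, whose gate was CD135-. Cd48 was at 41.8 and 45.2 RPKM there although the gate was CD48-, and at 5.17 to 29.5 RPKM in LT libraries. LT-CML and LT-HSC libraries also differed in gating markers. Flt3 was at 11.9 and 19.2 RPKM in LT-CML and 3.95 and 2.52 RPKM in LT-HSC libraries (adjusted p = 0.0185 from limma). Cd48 was at 16.8 and 29.5 against 10.45 and 5.17 RPKM, and Slamf1 at 35.45 and 25.4 against 14.3 and 10.7 RPKM. These 2, Kit and Ly6a did not pass 0.05, and the part of such differences in the CML comparisons was not tested. The sum of neutrophil and monocyte markers was not even among the CML stem libraries. Of 6 listed markers 5 were in the files, none at 0 in every library. Their sum was between 246 and 499.8 RPKM in LT-HSC 1, LT-HSC 2, ST-HSC and LT-CML 1. It was 1826 RPKM in LT-CML 2 and 1294 RPKM in ST-CML, and 9509 and 15080 RPKM in the KLS- libraries. Mpo made up most of the higher sums, at 5.2, 1291 and 830 RPKM in LT-CML 1, LT-CML 2 and ST-CML. Ctsg, Prtn3 and Csf1r were also lowest in LT-CML 1 among the CML stem libraries. Lyz2 did not follow, at 153.5, 117.9 and 154.2 RPKM in the same libraries and 116.8 and 112.6 RPKM in KLS- cells. Ddx3y, a Y-linked gene, was at 31.0 RPKM in LT-HSC 2 and 17.5 RPKM in LT-CML 2 and no higher than 0.0625 RPKM elsewhere, and the labels do not give the sex of the mice. Xist was at 0.154 RPKM in LT-HSC 2, at 13.5 RPKM in LT-CML 2 and at 12.4 to 30.8 RPKM elsewhere. The replicates of both LT populations were thus unlike in Ddx3y, and those of LT-HSCs also in age, so the spread between replicates includes these differences.

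Together the members took 0.074% to 0.0966% of the summed RPKM of a library. Between 24 and 27 members reached 0.5 RPKM in each library, and between 7 and 12 reached 10 RPKM. Abcc12, Abcg5 and Abcg8 were listed at 0 in all 8 libraries, and the other 16 members below 0.5 RPKM did not exceed 0.488 RPKM. Abce1 (ribosome recycling) was the most highly expressed member in 7 libraries and was second to Abcg1 in ST-CML. Abcg2 was second in all 4 LT libraries.

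**Figure D1:**
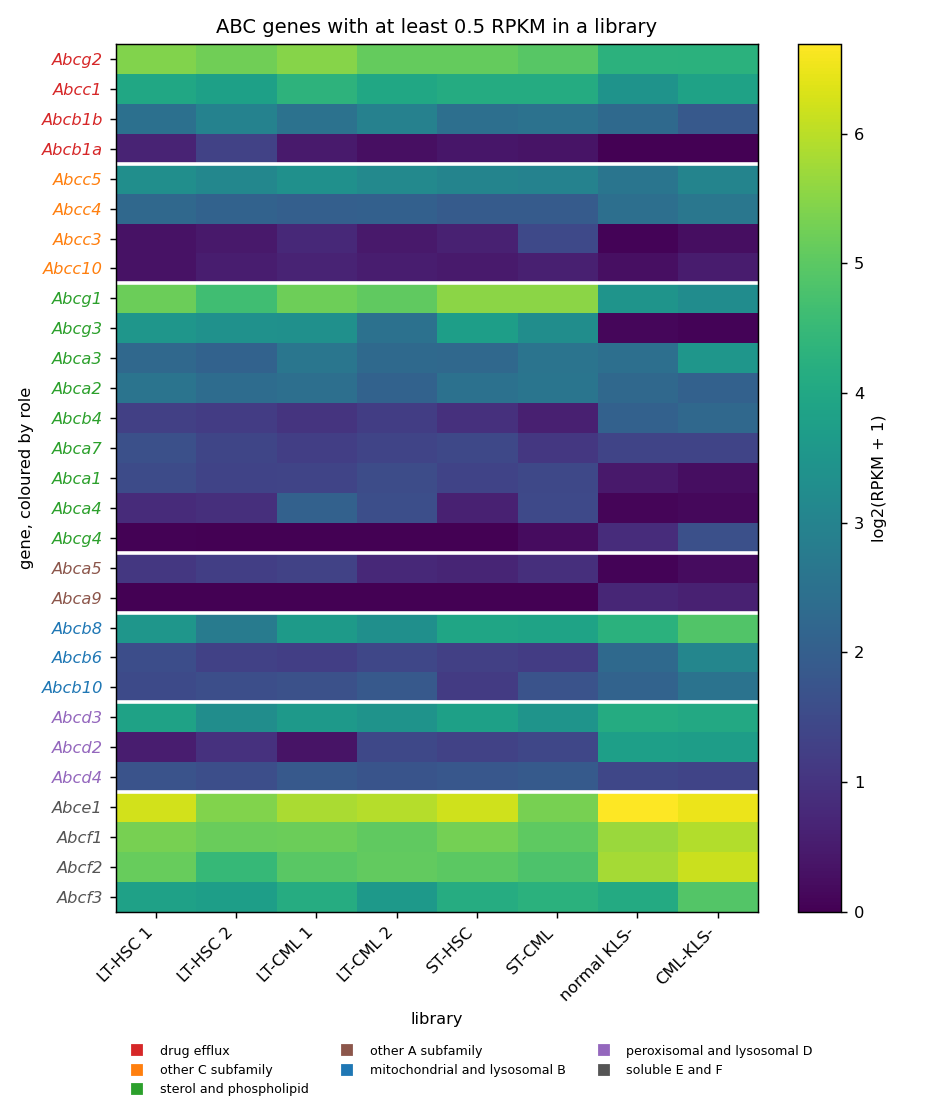
Levels of 29 of the 31 members with at least 0.5 RPKM in a library. Rows are genes grouped and coloured by role, columns are the 8 libraries, and colour is log2(RPKM + 1), from dark (0) to yellow (highest). Abce1, Abcf1, Abcf2, Abcg1 and Abcg2 are the brightest rows, and among the rows that change between the stem columns and the KLS- columns Abcg3 and Abcg1 darken and Abcd2 brightens most.

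Drug-efflux genes were examined first. All 4 had a value above 0 in every library, which for Abcb1a in KLS- cells was an estimated 1 read in each. Abcg2, Abcc1 and Abcb1b were called lower in KLS- cells than in stem cells, and the Abcc1 and Abcb1b calls were lost in 9 and 11 of 16 alternative settings. Abcb1a was also lower in KLS- cells but was not called in the main comparison. None of the 4 was called between CML stem cells and normal HSCs. Values below are given for LT-HSC 1, LT-HSC 2 and ST-HSC (together, normal HSCs), then for LT-CML 1, LT-CML 2 and ST-CML (together, CML stem cells), and last for normal KLS- and CML-KLS- cells.

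Abcg2 (chromosome 6, 58534517 to 58642863, plus strand, mm9), the dye and drug exporter of the side population, was at 42.3, 37.04 and 33.4 RPKM in normal HSCs, at 43.8, 33.6 and 30.1 RPKM in CML stem cells, and at 18.8 and 18.3 RPKM in KLS- cells. Both KLS- libraries lay below all 6 stem libraries, while the normal and CML stem libraries overlapped. The mean was 1.98 times as high in the stem libraries (36.7 ± 5.43 RPKM, SD, n = 6) as in the KLS- libraries (18.5 RPKM, n = 2), with a log2 fold change of 0.89 ± 0.14 (SE) and an adjusted p of 0.00102 from limma. All log2 fold changes here are on the log2(RPKM + 1) scale, which understates the change of genes near or below 1 RPKM, and adjusted p-values are Benjamini-Hochberg values over 12561 genes.

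Abcc1 (chromosome 16, 14361651 to 14475830, plus strand), the multidrug resistance-associated protein that exports glutathione conjugates and leukotriene C4, stood at 14.9, 13.1 and 16.2 RPKM in normal HSCs, at 19.1, 14.8 and 16.3 RPKM in CML stem cells, and at 9.78 and 13.4 RPKM in KLS- cells. CML-KLS- cells lay within the stem range. The stem minus KLS- log2 fold change was 0.43 ± 0.15 (adjusted p = 0.0408), and this call was lost in 9 of 16 alternative settings, with adjusted p-values from 0.0118 to 0.422.

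Mice have a pair of genes, Abcb1a and Abcb1b, for the P-glycoprotein that humans encode in 1 gene. Abcb1b (chromosome 5, 8798147 to 8866314, plus strand) was at 4.55, 6.88 and 4.46 RPKM in normal HSCs, at 4.77, 6.71 and 4.73 RPKM in CML stem cells, and at 3.84 and 2.62 RPKM in KLS- cells. Both KLS- libraries were below all stem libraries, by a small margin for the normal one. Its log2 fold change of 0.54 ± 0.19 (adjusted p = 0.0443) was called in the main comparison and lost in 11 of 16 alternatives.

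Abcb1a (chromosome 5, 8660077 to 8748575, plus strand) was at 0.574, 1.51 and 0.321 RPKM in normal HSCs, at 0.398, 0.210 and 0.270 RPKM in CML stem cells, and at 0.00992 and 0.0113 RPKM in KLS- cells. The KLS- values corresponded to an estimated 1 read in each library, against 353 reads in the 6 stem libraries, which gives a ratio per read sequenced of 55.9 (exact 95% interval 15.4 to 464, covering counting error only, and the cDNA was amplified, so that several reads can stem from 1 molecule). With a pseudocount of 1 RPKM the log2 fold change was 0.51 ± 0.20 and did not pass the threshold (adjusted p = 0.0627), whereas with 0.1 RPKM it was 2.18 (adjusted p = 0.00485). Leaving out LT-HSC 2, the 6-month library with the highest value, gave an adjusted p of 0.0142, and leaving out LT-CML 2 gave 0.0494, within a range of 0.00485 to 0.442 over 15 alternatives. Of all 100-base stretches of the transcripts, 7.72% for Abcb1a and 8.65% for Abcb1b were shared within this pair, and how the authors assigned reads matching both is not given in the sources used here.

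In stem cells the order of the 4 genes was Abcg2, Abcc1, Abcb1b and Abcb1a in each of the 6 libraries, with no overlap between neighbours. Between CML stem cells and normal HSCs, Abcb1a averaged 0.292 ± 0.0962 against 0.803 ± 0.629 RPKM (SD, n = 3 each), and its exact two-sided permutation p was 0.2. The same exact permutation test gave p = 0.6 for Abcb1b, 0.4 for Abcc1 and 0.8 for Abcg2, and the smallest p that 3 against 3 allows is 0.1. On the log2 scale the 95% intervals of the difference were -0.95 to 0.10 for Abcb1a, -0.45 to 0.52 for Abcb1b, -0.19 to 0.53 for Abcc1 and -0.49 to 0.33 for Abcg2. These intervals, like the permutation test, pooled LT with ST libraries without a term for cell type. For Abcb1b, Abcc1 and Abcg2 a 2-fold change in either direction lay outside the interval, and for Abcb1a the pseudocount compresses this scale (the ratio of means was 0.364). The Abcb1a difference rested on LT-HSC 2, without which the normal mean was 0.447 RPKM, the ratio 0.653 and the log2 fold change -0.16 instead of -0.43.

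**Figure D2:**
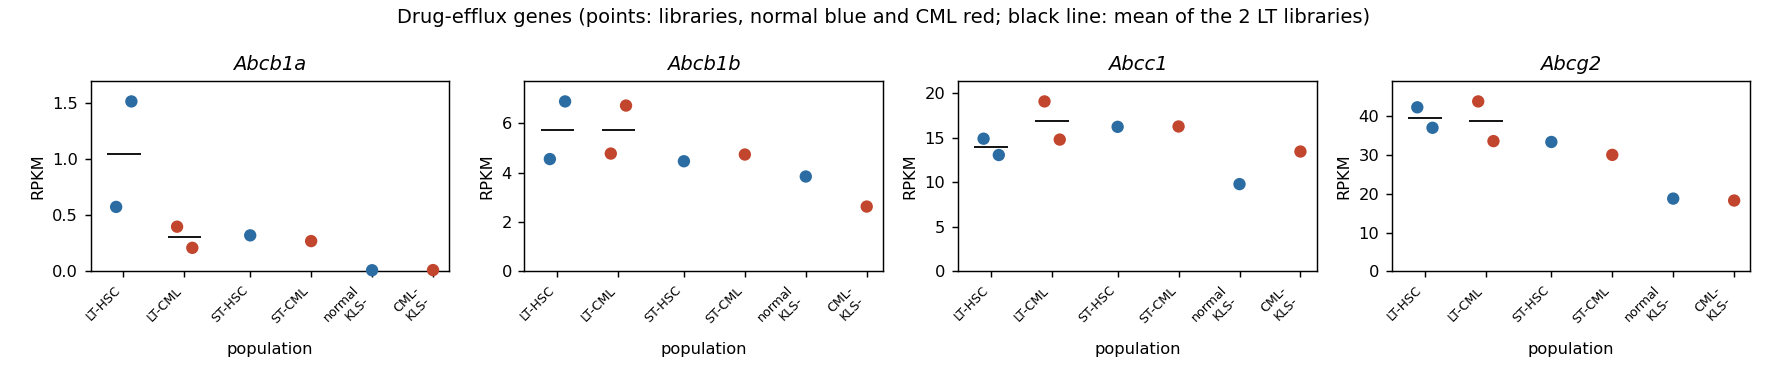
RPKM of the 4 drug-efflux genes by population. Points are libraries, normal in blue and CML in red, black lines are means of the 2 LT libraries, and each vertical axis is linear from 0. Abcg2 falls from 30.1 to 43.8 RPKM in stem libraries to 18.3 and 18.8 RPKM in KLS- libraries, and the single high Abcb1a point is LT-HSC 2 at 1.51 RPKM.

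The comparison of stem cells with KLS- progenitors was then extended to the family. Of the 34 members with a total above 1 RPKM, 10 were higher and 14 lower in the 6 stem libraries than in the 2 KLS- libraries (limma with disease as a term, adjusted p below 0.05), and all 31 members above the reporting limit were among those tested. Among all 12561 genes, 26.5% were higher and 22.2% lower, so the share of members that were higher (29.4%) was close to this background and the share that were lower (41.2%) was above it, a difference that was not tested. Among the 25 members with a mean of at least 1 RPKM, 8 were higher and 13 lower, against 26.8% and 26.1% of genes of that level. The median log2 fold change was -0.14 over members and 0.08 over all genes.

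By complete separation, 11 members had all 6 stem libraries above both KLS- libraries (27.7% of all genes) and 15 had all of them below (21.9%). In either direction 24 members were called, against 48.7% of all genes. The count was 12 without the CML-KLS- library, where 25.3% of all genes were called, and 18 without the normal KLS- library, where 29.1% were, so that calls fell over all genes and not only among members. Within normal libraries alone 10 members were called (19.3% of all genes), and within CML libraries alone 16 (23.3%); both of these fits were added after the data were seen. Abca1, Abcg1, Abcg2, Abcg3, Abca9, Abcb4, Abcb6, Abcd2 and Abcg4 were called in all alternatives that were run. In bulk samples, fewer cells of a type and less RNA per cell cannot be told apart.

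**Figure D3:**
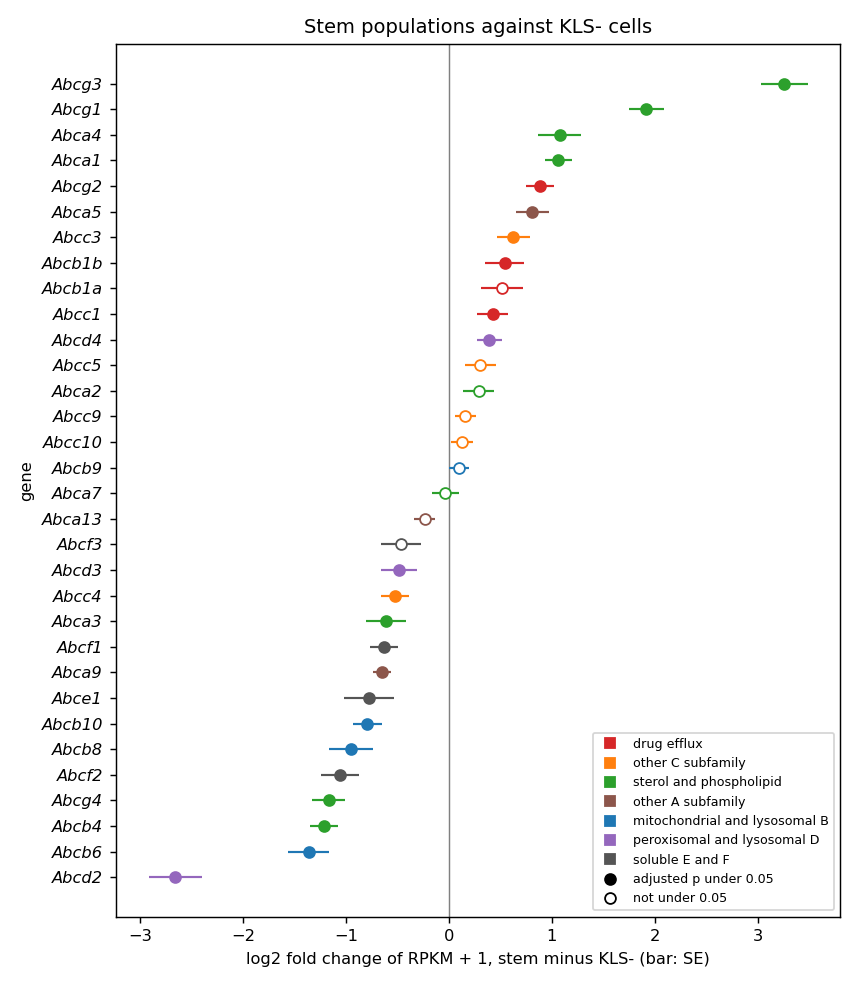
Log2 fold change of RPKM + 1, stem minus KLS-, for 32 of the 34 members tested. Points are estimates, bars are SE, colour is role, and filled points have an adjusted p under 0.05 from limma. Abcg3 (3.26) is at the upper end and Abcd2 (-2.66) at the lower end, all 4 drug-efflux genes lie to the right of 0, and all mitochondrial, lysosomal B and soluble members shown except Abcb9 lie to the left.

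The list of sterol and phospholipid transporters, in which Abcg3 was counted although its substrate is not established, divided in both directions. Of 9 tested, 4 were higher in stem cells (Abca1, Abca4, Abcg1 and Abcg3) and 3 were higher in KLS- cells (Abca3, Abcb4 and Abcg4). Abcg3, a rodent relative of Abcg2 whose substrate is not established, showed the largest difference of the family. It stood at 10.4, 9.45 and 12.6 RPKM in normal HSCs, at 9.23, 4.65 and 8.74 RPKM in CML stem cells, and at 0.0814 and 0.0555 RPKM in KLS- cells, where an estimated 5 and 3 reads were counted. Its stem level was 133 times that of KLS- cells per read sequenced (exact 95% interval 67.5 to 309), and its log2 fold change was 3.26 ± 0.22 (adjusted p = 2.4e-05).

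Abcg1, which exports cholesterol to high-density lipoprotein, was second on the stem side on the log2(RPKM + 1) scale. Its values were 35.8, 24.0 and 45.2 RPKM in normal HSCs, 36.1, 32.1 and 45.04 RPKM in CML stem cells, and 10.1 and 8.49 RPKM in KLS- cells (3.92-fold, log2 fold change 1.92 ± 0.17, adjusted p = 8.04e-05). Abca1, which loads cholesterol onto apolipoprotein A-I, was at 1.91, 1.55 and 1.54 RPKM in normal HSCs, at 1.60, 1.95 and 1.72 RPKM in CML stem cells, and at 0.380 and 0.197 RPKM in KLS- cells (log2 fold change 1.06 ± 0.13). In each gene all 6 stem libraries were above both KLS- libraries, over a stem range that was wide for Abcg1 (24.0 to 45.2 RPKM) and narrow for Abca1 (1.54 to 1.95 RPKM).

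Abcg4, a close relative of Abcg1, was at 0.0277, 0.0115 and 0.0147 RPKM in normal HSCs, at 0, 0 and 0.163 RPKM in CML stem cells, and at 0.790 and 2.09 RPKM in KLS- cells. Its KLS- level was 42.0 times the stem level per read sequenced (exact 95% interval 25.3 to 74.9), with 16 reads in the stem libraries together, 12 of them in ST-CML. Abcb4, the phosphatidylcholine floppase of bile, was at 1.42, 1.26 and 0.888 RPKM in normal HSCs, at 1.02, 1.33 and 0.5003 RPKM in CML stem cells, and at 3.26 and 3.80 RPKM in KLS- cells (log2 fold change -1.22 ± 0.14, adjusted p = 0.000243). Abca3, the surfactant lipid transporter of the lung, was at 3.80, 3.33 and 3.75 RPKM in normal HSCs, at 5.13, 3.89 and 4.96 RPKM in CML stem cells, and at 4.43 and 10.5 RPKM in KLS- cells. Only the CML-KLS- library stood apart for Abca3, and without it the call was lost.

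The peroxisomal transporters Abcd2 and Abcd3 were on the KLS- side. Abcd2, which imports very long-chain fatty acids into peroxisomes, was at 0.460, 0.928 and 1.48 RPKM in normal HSCs, at 0.269, 1.72 and 1.67 RPKM in CML stem cells, and at 12.6 and 12.3 RPKM in KLS- cells. The KLS- libraries were 11.4 times as high on average, and on the log2(RPKM + 1) scale, though not as a ratio, this was the largest difference on that side (log2 fold change -2.66 ± 0.26, adjusted p = 0.000115). The 2 highest stem values, in LT-CML 2 and ST-CML, were in the libraries with the highest summed neutrophil and monocyte markers among stem libraries (1826 and 1294 RPKM); the part of these cells in the result was not tested.

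Abcd3, a peroxisomal importer of branched and other long-chain acyl groups, was at 13.4, 8.73 and 13.04 RPKM in normal HSCs, at 11.3, 9.78 and 10.1 RPKM in CML stem cells, and at 16.2 and 15.5 RPKM in KLS- cells. Abcd4, a lysosomal protein of cobalamin export, went the other way, at 2.27, 2.06 and 2.50 RPKM in normal HSCs, 2.67, 2.36 and 2.69 RPKM in CML stem cells, and 1.69 and 1.58 RPKM in KLS- cells (log2 fold change 0.39 ± 0.13, adjusted p = 0.0286). The Abcd3 and Abcd4 calls were each lost in 8 of 16 alternatives.

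The mitochondrial members Abcb6, Abcb8 and Abcb10 were on the KLS- side as well. Abcb6, a porphyrin transporter, was at 2.02, 1.46 and 1.40 RPKM in normal HSCs, at 1.37, 1.70 and 1.30 RPKM in CML stem cells, and at 3.87 and 7.35 RPKM in KLS- cells (3.64-fold, adjusted p = 0.000829). Abcb10, which is needed for haem synthesis in red cell precursors, was at 1.83, 2.07 and 1.24 RPKM in normal HSCs, at 2.14, 2.63 and 2.28 RPKM in CML stem cells, and at 3.38 and 4.85 RPKM in KLS- cells (2.03-fold). Abcb8, of the mitochondrial inner membrane, was at 10.4, 5.92 and 14.4 RPKM in normal HSCs, at 11.4, 9.06 and 13.7 RPKM in CML stem cells, and at 18.2 and 28.2 RPKM in KLS- cells (2.14-fold). All 3 genes had both KLS- libraries above all stem libraries, and for each the CML-KLS- value was the higher of the pair. Summed erythroid markers (5 of 5 listed were in the files) were at 21.6 RPKM in normal KLS- cells and 39.5 RPKM in CML-KLS- cells, and at 3.30 to 66.3 RPKM in stem libraries, the highest in LT-HSC 2; their part in these differences was not tested. Hba-a1 was at 0 in every library, and Klf1 was at 6.34 and 9.07 RPKM in KLS- cells, against at most 1.90 RPKM in stem libraries. Of 4 tested erythroid markers 3 were called lower in stem cells, against 22.2% of all genes. Hbb-b1 was not called and went the other way in normal HSCs, at 6.25, 56.3 and 3.23 RPKM, against 2.21 and 1.61 RPKM in KLS- cells. It made up most of the sum in LT-HSC 2 and was at most 0.857 RPKM in CML stem cells.

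Of the soluble proteins, 3 of 4 were called, all lower in stem cells. Abce1 was at 74.7, 42.3 and 73.4 RPKM in normal HSCs, at 56.7, 60.4 and 39.1 RPKM in CML stem cells, and at 102.4 and 89.2 RPKM in KLS- cells, with a call that was lost in 7 of 16 alternatives. Abcf1, which acts in translation initiation, was at 38.8, 35.1 and 38.3 RPKM in normal HSCs, at 35.4, 32.1 and 31.6 RPKM in CML stem cells, and at 50.2 and 59.9 RPKM in KLS- cells. Abcf2 was at 33.9, 21.4 and 30.9 RPKM in normal HSCs, at 30.7, 32.7 and 27.4 RPKM in CML stem cells, and at 54.8 and 69.8 RPKM in KLS- cells (2.11-fold, adjusted p = 0.00175). Both KLS- libraries were above all stem libraries for these 3 genes, and differences among the stem libraries were smaller than the gap only for Abcf1 and Abcf2.

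The remaining calls were in the C subfamily and in subfamily A. Abcc3, an organic anion exporter of liver and gut, was at 0.251, 0.385 and 0.542 RPKM in normal HSCs, at 0.695, 0.362 and 1.77 RPKM in CML stem cells, and at 0.0395 and 0.179 RPKM in KLS- cells. Abcc4, which exports cyclic nucleotides and prostaglandins, was at 3.83, 3.28 and 2.81 RPKM in normal HSCs, at 3.05, 3.14 and 2.80 RPKM in CML stem cells, and at 4.42 and 5.24 RPKM in KLS- cells. Thus 1 of 5 tested C-subfamily members outside the drug-efflux group was higher and 1 lower in stem cells. Abca5, a lysosomal member, was at 1.11, 1.37 and 0.611 RPKM in normal HSCs, at 1.51, 0.704 and 0.870 RPKM in CML stem cells, and at 0.0418 and 0.163 RPKM in KLS- cells (10.1-fold, adjusted p = 0.00362). Abca9 was at 0.0160, 0.00668 and 0 RPKM in normal HSCs, at 0.0154, 0.00876 and 0.0171 RPKM in CML stem cells, and at 0.654 and 0.528 RPKM in KLS- cells, a ratio of 57.2 per read sequenced (exact 95% interval 28.3 to 135).

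**Figure D4:**
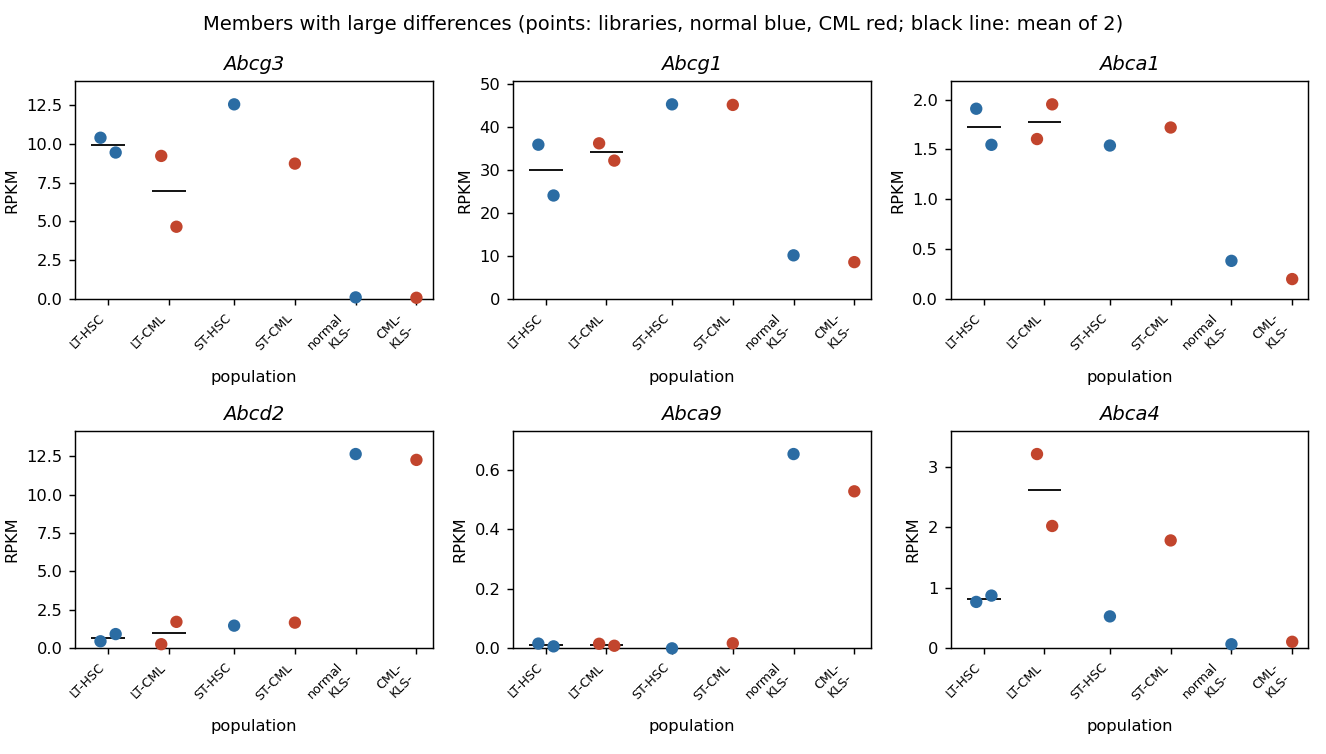
RPKM of 6 members by population. Points are libraries, normal in blue and CML in red, black lines are means of the 2 LT libraries, and each vertical axis is linear from 0. Abcg3, Abcg1 and Abca1 are high in the stem libraries, Abcd2 and Abca9 in the KLS- libraries, and for Abca4 the 3 CML stem libraries (1.78 to 3.21 RPKM) lie above the 3 normal ones (0.528 to 0.872 RPKM).

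Neighbouring members did not always share a direction. Abcb1a, Abcb1b and Abcb4 lie in a row on chromosome 5 (mm9), with 49.6 kb and 27.4 kb between them, and Abcb1b was higher in stem cells while Abcb4 was higher in KLS- cells. On chromosome 11, Abca8b, Abca8a, Abca9, Abca6 and Abca5 are separated by 29.8, 4.8, 8.6 and 17.6 kb. Of these, Abca5 was called higher in stem cells and Abca9 higher in KLS- cells, and the other 3 did not exceed 0.104 RPKM in any library. Abcd3 and Abca4 lie 229.1 kb apart on chromosome 3 and were called in opposite directions. Abcb8 and Abcf2, 155.3 kb apart on chromosome 5, were both called higher in KLS- cells. The Abcd3 call was lost in 8 of 16 alternatives and the Abcb1b call in 11 of 16. Counting by strand is not stated, so reads from overlapping genes on opposite strands cannot be told apart.

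Promoter sequences were available for 38 of the 50 members in RefSeq (GRCm38.p6), as 300 bases from 250 before the start site. They are shown for members that were higher in stem cells (Abcg3, Abcb1b and Abca1), in KLS- cells (Abca9) and in CML stem cells (Abca4). The Abcb1b call was lost in 11 of 16 alternatives, and the Abca4 call in CML stem cells in 8 of 13. Capitals mark, on either strand, the GC box GGGCGG, the CCAAT box CCAAT, the RUNX motif TGTGGT, the GATA motif AGATAA and the E-box CACGTG; no marked motif overlaps another. The regions are chr5:104982668-104982967 on the minus strand for Abcg3, chr5:8797897-8798196 on the plus strand for Abcb1b, chr4:53159846-53160145 on the minus strand for Abca1, chr11:110168104-110168403 on the minus strand for Abca9 and chr3:122044210-122044509 on the plus strand for Abca4. Each is printed 5′ to 3′ in the direction of transcription.
Abcg3: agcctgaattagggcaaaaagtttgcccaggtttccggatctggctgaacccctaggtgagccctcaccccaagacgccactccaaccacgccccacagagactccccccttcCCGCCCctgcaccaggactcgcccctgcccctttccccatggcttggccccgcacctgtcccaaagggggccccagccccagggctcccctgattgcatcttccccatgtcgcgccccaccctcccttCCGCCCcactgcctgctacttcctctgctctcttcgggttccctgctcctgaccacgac
Abcb1b: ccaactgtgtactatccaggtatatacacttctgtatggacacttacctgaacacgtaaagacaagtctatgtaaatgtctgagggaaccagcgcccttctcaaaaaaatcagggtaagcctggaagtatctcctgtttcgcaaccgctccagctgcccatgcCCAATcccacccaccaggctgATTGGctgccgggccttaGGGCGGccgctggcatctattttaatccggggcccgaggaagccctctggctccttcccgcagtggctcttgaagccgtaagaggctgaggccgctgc
Abca1: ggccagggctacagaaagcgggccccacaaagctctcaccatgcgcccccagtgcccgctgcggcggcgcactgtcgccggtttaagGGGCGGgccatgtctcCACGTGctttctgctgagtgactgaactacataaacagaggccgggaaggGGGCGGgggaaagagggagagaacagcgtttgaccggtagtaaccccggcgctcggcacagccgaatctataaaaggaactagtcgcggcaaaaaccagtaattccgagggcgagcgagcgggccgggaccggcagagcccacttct
Abca9: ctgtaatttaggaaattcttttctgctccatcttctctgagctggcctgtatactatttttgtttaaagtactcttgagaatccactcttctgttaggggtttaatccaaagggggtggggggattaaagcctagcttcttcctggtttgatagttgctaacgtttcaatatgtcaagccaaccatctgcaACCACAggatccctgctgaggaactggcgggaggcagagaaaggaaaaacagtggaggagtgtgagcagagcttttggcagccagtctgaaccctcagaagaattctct
Abca4: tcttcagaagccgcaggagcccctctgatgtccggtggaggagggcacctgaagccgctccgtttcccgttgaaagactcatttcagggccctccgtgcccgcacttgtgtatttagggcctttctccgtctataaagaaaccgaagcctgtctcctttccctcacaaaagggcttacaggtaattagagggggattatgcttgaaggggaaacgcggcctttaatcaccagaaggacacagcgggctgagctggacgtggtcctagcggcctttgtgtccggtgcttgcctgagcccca

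With the start site as 0, Abcg3 had GC boxes at -137 and -9, and Abcb1b had CCAAT boxes at -87 and -66 with a GC box at -48. Abca1 had GC boxes at -163 and -97 and an E-box at -147. Abca9 had a RUNX motif at -59, and Abca4 had none of the 5 motifs in this window. A GC box was found in 46.7% of 45 member promoters and 35.7% of all 32851 promoters, a CCAAT box in 35.6% and 37.4%, the RUNX motif in 15.6% and 16.8%, the GATA motif in 13.3% and 11.2%, and the E-box in 13.3% and 7.15%. Such matches describe the letters in the window, and the start site used in these cells was not measured.

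CML stem cells were next compared with normal HSCs (3 libraries against 3). Abca4 was the single member of 34 that was called, and it was higher in CML stem cells, against a background of 1.18% of 12561 genes called in that direction. Abca4 (chromosome 3, 121747361 to 121882979, plus strand, mm9), a phospholipid and retinoid transporter known from photoreceptors, was at 0.768, 0.872 and 0.528 RPKM in normal HSCs, at 3.21, 2.02 and 1.78 RPKM in CML stem cells, and at 0.0681 and 0.108 RPKM in KLS- cells. The 3 CML stem libraries lay above the 3 normal libraries, with means of 2.34 ± 0.765 and 0.723 ± 0.176 RPKM (SD, n = 3), a ratio of 3.24. These values rest on an estimated 72.2 to 483 reads in each stem library.

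The log2 fold change of Abca4 was 0.94 ± 0.18 (95% interval 0.51 to 1.37, adjusted p = 0.0482 from limma), just under the threshold. Over 13 alternatives the adjusted p was between 0.0131 and 0.167, and the call was lost in 8, including each omission of 1 library (0.0582 to 0.167); the direction was the same in all 13. Among CML stem libraries, summed neutrophil and monocyte markers were at 246 RPKM (LT-CML 1), 1826 RPKM (LT-CML 2) and 1294 RPKM (ST-CML). Abca4 was at 3.21, 2.02 and 1.78 RPKM there, and the part of these markers in its difference was not tested. In the replicated LT comparison alone (2 against 2), the log2 fold change of Abca4 was 0.97 ± 0.20 with an adjusted p of 0.0634. It was also higher in stem than in KLS- cells (log2 fold change 1.08 ± 0.21, adjusted p = 0.00294), a call that was lost without the CML-KLS- library.

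No member was called in LT-CML stem cells against LT-HSCs by limma, where 1.73% of all genes were called. At an unadjusted p below 0.05 there were 2 members of 34, Abca4 and Abcb1a, against 11.6% of all genes. Abcb1a was at 0.574 and 1.51 RPKM in LT-HSCs and 0.398 and 0.210 RPKM in LT-CML stem cells (log2 fold change -0.61 ± 0.22, adjusted p = 0.335), and without LT-HSC 2 the log2 fold change was -0.28. The next largest difference was that of Abcg3, with a log2 fold change of -0.52 ± 0.29 (adjusted p = 0.593). Replicates differed by a median of 0.18 (LT-HSC) and 0.20 (LT-CML) on the log2 scale over the tested members, and by up to 0.81 (Abce1) and 1.10 (Abcd2).

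Beyond Abca4, 4 members had all 3 CML stem libraries above all normal libraries (Abca3, Abcb9, Abcb10 and Abcc10), making 5 of 34, against 6.92% of all genes. Abcg3 and Abca7, a phospholipid transporter of phagocytic cells, had all 3 below, against 11.4% of all genes. Abca7 was at 2.11, 1.63 and 1.75 RPKM in normal HSCs and at 1.35, 1.60 and 1.13 RPKM in CML stem cells. Abcg3, at 9.45 to 12.6 and 4.65 to 9.23 RPKM, had a log2 fold change of -0.51 ± 0.25 (adjusted p = 0.469). These separations did not reach the threshold.

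**Figure D5:**
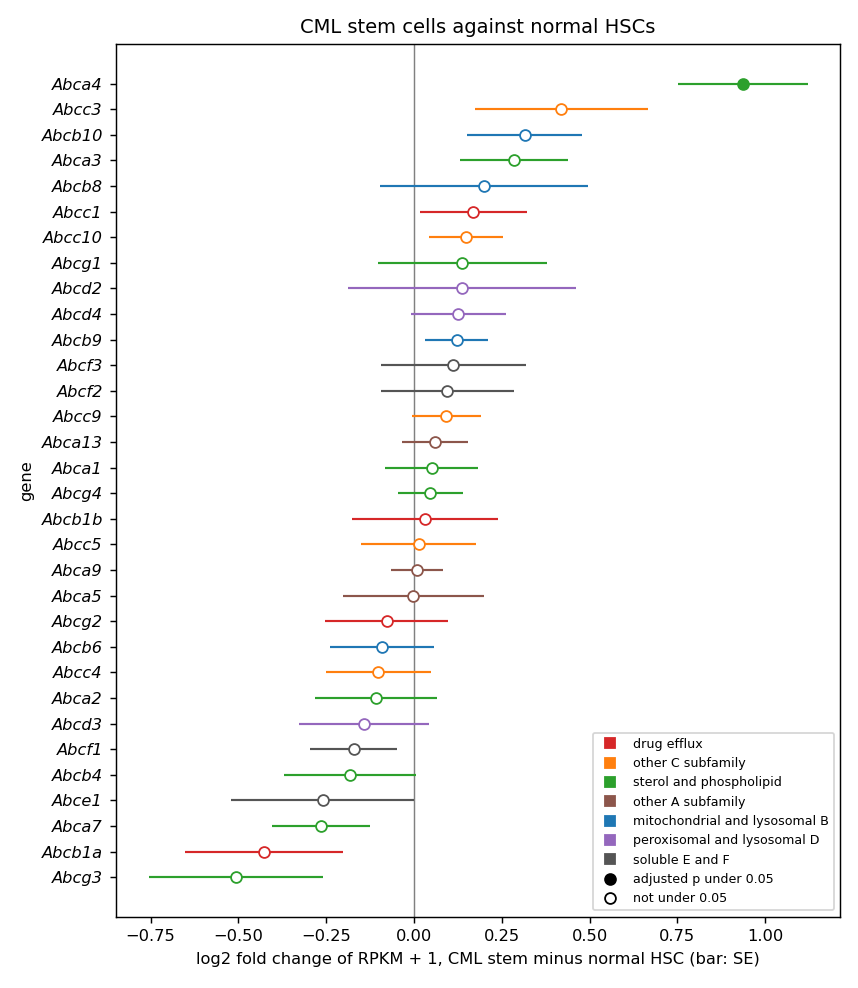
Log2 fold change of RPKM + 1, CML stem cells minus normal HSCs, for 32 of the 34 members tested. Points are estimates, bars are SE, colour is role, and the filled point (Abca4, 0.94) has an adjusted p under 0.05 from limma. The other members lie between -0.51 (Abcg3) and 0.42 (Abcc3), and the 4 drug-efflux genes between -0.43 and 0.17.

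ST and KLS- cells had 1 CML and 1 normal library each, so their differences have no replicate check. Between ST libraries no member differed by more than 1 on the log2(RPKM + 1) scale, against 2.03% of all genes upwards and 2.01% downwards. The largest were Abce1, at 39.1 RPKM in ST-CML and 73.4 RPKM in ST-HSC, Abca4 and Abcc3. Between KLS- libraries Abca3 alone passed this limit, at 10.5 RPKM in CML-KLS- and 4.43 RPKM in normal KLS- cells, against 1.85% of genes upwards and 1.39% downwards. Abcf3, Abcg4 and Abcb6 followed, all higher in CML-KLS- cells, with log2 differences of 0.80, 0.79 and 0.78. The drug-efflux gene Abcb1b was lower there (2.62 and 3.84 RPKM), Abcc1 was higher (13.4 and 9.78 RPKM), and Abcg2 differed little (18.3 and 18.8 RPKM).

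A test of whether the CML difference in stem cells departed from that in KLS- cells called no member (limma, 0.0239% of all genes called). At an unadjusted p below 0.05 there were 3 of 34 (3.18% of all genes), Abca4 (0.87 ± 0.32), Abcg4 (-0.70 ± 0.20) and Abcb6 (-0.86 ± 0.33), with adjusted p-values of 0.937 to 1.

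LT cells were compared with ST cells with disease as a term (4 libraries against 2). No member was called by limma, where 4.87% of all genes were, and 5 had an unadjusted p below 0.05, among them Abcc3, Abcb4, Abcb8 and Abcg1, against 19.6% of all genes. Abcb8 was at 5.92 to 11.4 RPKM in LT and 14.4 and 13.7 RPKM in ST libraries, with a log2 fold change of -0.60 ± 0.22 (adjusted p = 0.181). Abcc3 was at 0.251 to 0.695 RPKM in LT and 0.542 and 1.77 RPKM in ST libraries (-0.55 ± 0.17, adjusted p = 0.111). The Abcb8 libraries of the 2 cell types did not overlap, and those of Abcc3 did. Among drug-efflux genes, Abcg2 was at 33.6 to 43.8 RPKM in LT and 30.1 and 33.4 RPKM in ST libraries (log2 fold change 0.29 ± 0.14, adjusted p = 0.307).

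Other genes of the same pathways were read from fixed lists. Their calls between stem and KLS- cells stand against 26.5% of all genes higher and 22.2% lower in stem cells. Of 13 genes of sterol regulation, 7 were higher and 2 lower in stem cells, with Srebf2, the transcription factor of cholesterol synthesis, at a log2 fold change of 1.35 ± 0.18 and Scarb1, the high-density lipoprotein receptor, at -1.35 ± 0.19. Of 9 tested drug uptake carriers 3 were higher and 4 lower. Of 5 tested xenobiotic and hypoxia regulators 1 was higher, Ahr, the aryl hydrocarbon receptor. The 3 ABC proteins with other symbols (Tap1, Tap2 and Cftr) were not called. No gene of these 4 lists was called between CML stem cells and normal HSCs.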

How the data were processed

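RNA was reverse transcribed with oligo-dT priming and amplified as cDNA, paired-end 100-base reads were mapped to mm9, and 1 RPKM table per library was deposited by the authors. The deposited RPKM values were used as they are. The counting rule and the annotation are not given in the sources used here. Members and lists were chosen with earlier results of these data known. Loci and transcript lengths came from GENCODE M1 (mm9). Depth was estimated from RPKM steps of low genes, with the step size chosen for each gene, and 97.4% of 4495 lay within 2% of whole steps. With transcript lengths, 1945 of 3965 genes gave the most frequent depth, which was the one used, so estimated reads are approximate.

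Genes with a total above 1 RPKM (12561) were tested with limma 3.58.1 (R 4.3.3) and its trended empirical Bayes step on log2(RPKM + 1), with Benjamini-Hochberg adjustment over all of them and a threshold of 0.05. Stem minus KLS- and LT minus ST used all 8 libraries with disease and population as terms. Their 4 residual degrees of freedom also held departures of the disease difference between populations. CML stem minus normal HSC used the 6 stem libraries without a term for LT or ST, so its spread included differences between LT and ST cells. With that term 543 of all genes were called instead of 294, and Abca4 remained the single member. Other contrasts used 1 mean per population (2 residual degrees of freedom, from the LT libraries, so that single libraries were assumed to vary like these). Python 3.11.15 with scipy 1.17.1 gave exact permutation tests and exact binomial intervals. On simulated data, 100% of 200 genes given a log2 change of 2 were recovered in each of 4 contrasts, and 4.31% to 6.1% of calls were unchanged genes. The changed genes had a mean above 1 on the log2(RPKM + 1) scale, and the noise followed the LT replicates. Unchanged genes had the same mean in all libraries, so differences between LT, ST and KLS- cells were not simulated. The share of unchanged genes among calls therefore does not measure the error rate in the real libraries. Smaller changes were not simulated, so the recovery does not measure power for smaller member differences. The largest in CML stem minus normal HSC was 0.94 (Abca4). Named were the 4 drug-efflux genes, members called in any contrast and the 3 largest differences in each. Alternatives covered the pseudocount, filter, scaling, terms and each library. Results for some genes are not reported here.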

Additional observations from a re-analysis of the deposited data

How the results depend on the processing

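The Abca4 call in CML stem cells was often lost: 0 members were called with no filter on low values, 0 with a mean of at least 1 RPKM, and 0 (lowest and highest) when a library was left out. LT minus ST gave 1 member under quantile normalization and 1 under upper-quartile scaling, and 0 to 1 when a library was left out. Stem minus KLS- gave 12 to 25 members when a library was left out (3178 to 6338 of all 12561 genes), the lowest without the CML-KLS- library, and 10 (2420 of all genes) with normal libraries only, a fit added after the data were seen; the main count was 24 (6123 of all genes). Fits that leave out libraries have fewer samples; the cause was otherwise not tested. LT-CML minus LT-HSC and the difference of CML effects gave 0 members in all alternatives run.

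Drug-efflux genes near 0 changed sign without a call. For CML stem minus normal HSC, Abcb1b was at -0.08 on the log2 scale in all 8 libraries with population as a term and at -0.109 to 0.205 when a library was left out, and Abcg2 at -0.229 to 0.036. For LT-CML minus LT-HSC, Abcb1b was at -0.003 under upper-quartile scaling and at -0.24 to 0.266 when a library was left out, and Abcg2 at -0.231 to 0.144. Of 395 single-gene alternatives for stem minus KLS-, 322 kept direction and side of the threshold, 70 lost the call, 3 gained it and 0 reversed. No paired analysis was possible because the labels give the groups no shared replicate numbers. With 1 library in 4 of 6 populations, only LT cells had replicates. Fits without 1 mean per population also took their spread from differences between populations.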
